A study of Mus musculus with 16 samples.

Results

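The 9 genes described here are direct transcriptional targets and feedback inhibitors of bone morphogenetic protein (BMP) signalling in mouse cells: Id1, Id2, Id3, Id4, Bambi, Smad6, Smad7, Msx1 and Msx2. They were chosen by symbol as known targets of the pathway, and each matched 1 of the 31663 entries of the expression table. All 9 were among the 13406 entries tested.

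BMP ligands bind paired type I and type II receptors at the cell surface, which phosphorylate SMAD1, SMAD5 and SMAD9. These join SMAD4 and enter the nucleus, where the Id genes are among the most direct targets. The pathway also induces its own brakes, and BMP4 in early mouse development is known both for its role in the extraembryonic ectoderm, a trophoblast tissue, and for inducing mesoderm and germ cell precursors in the neighbouring epiblast.

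RNA was measured in 16 libraries, 2 for each of 8 groups, each made by Smart-seq2 from a single colony or part of one. Induced pluripotent stem cells (iPSC, marked with GFP) and trophectoderm stem cells (TSC, also called TSCC in the labels and marked with RFP) grew alone or were mixed and assembled into structures, from which the iPSC part and the TSC part were separated by hand. All groups shared a surface coated with 5% Matrigel and a medium with serum, 12.5 ng/ml FGF4 and 500 ng/ml heparin, and all were collected on day 3. The 4 kinds of culture (iPSC alone, TSC alone, assembled iPSC part and assembled TSC part) were each kept without or with BMP4 for the last 24 hours. The BMP4 dose is not stated in the labels. The labels do not tell whether the libraries of 1 group are from different cultures, so p-values reflect only how much these libraries vary. A lower level can come from fewer cells of a type or from less RNA per cell, and in bulk libraries these cannot be told apart.

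Levels are FPKM (fragment counts scaled by transcript length and library total), which are per length and so can be compared between genes. Changes are given on the scale of log2(FPKM + 1) with the SE of the limma fit, and this scale compresses the change of genes at low levels. A change passed the test at a Benjamini-Hochberg adjusted p under 0.05 over all 13406 genes. Depth in reads is not known, but the smallest steps between low values gave relative depths from 31.5% to 100% of the deepest library. The shallowest was the first BMP4-treated library of the assembled iPSC part. Of 10 pluripotency markers, 8 to 10 stood at 1 FPKM or more in the libraries of iPSC origin and 5 to 10 in those of TSC origin. Of 12 trophoblast markers, 10 to 12 did in TSC origin and 4 to 11 in iPSC origin. These counts thus overlap between the lineages and do not separate them. In 2 libraries a gene of the other lineage stood far above its level in the replicate. Elf5, a trophoblast stem cell factor, was at 50.4 FPKM in replicate 2 and at 0.193 in replicate 1 of the BMP4-treated assembled iPSC part. Pou5f1, which encodes the pluripotency factor OCT4, was at 13.2 FPKM in replicate 2 of the assembled TSC part and at 2.33 in replicate 1. Elf5 and Pou5f1 were not the only markers to differ. Replicate 2 had 11 of 12 trophoblast markers at 1 FPKM or more against 9 in the first case. In the second it had 10 of 10 pluripotency markers against 7. These 2 cross-marker libraries were left out together as an alternative, but they were picked on 1 gene each, and the summed marker lists do not single out the same pair. Replicate 2 of iPSC alone with BMP4 had a higher summed level of 12 trophoblast markers (826 FPKM, 11 of 12 at 1 FPKM or more) than the chosen library of the assembled iPSC part with BMP4 (617 FPKM, 11 of 12). Replicate 2 of the assembled TSC part with BMP4 had 9 of 10 pluripotency markers at 1 FPKM or more, with a sum of 794 FPKM, against 10 of 10 and 1210.4 FPKM in the chosen library of the assembled TSC part. In TSC alone without BMP4, Elf5 was at only 5.51 and 11.6 FPKM and Eomes, another trophoblast stem cell factor, at 0.219 and 0.0844. In the other 6 libraries of TSC origin Elf5 stood at 116 FPKM or more and Eomes at 11.2 or more.

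The promoter windows of 4 of the genes are shown because the 4 genes follow different patterns. Without BMP4, mean Id2 was higher and mean Id3 lower in TSC than in iPSC, alone and assembled, though the Id3 differences did not pass. Msx1 and Msx2 vary together in iPSC but not in TSC. In the RefSeq promoter table on build GRCm38.p6, 6 of the 9 genes were matched (Id2, Id3, Id4, Smad6, Msx1 and Msx2). The matching was set to leave out the promoters of a single chromosome. Id1, Bambi and Smad7 had no match. For any of them that lies on that chromosome, this does not show that the table lacks it. Each window holds the 250 bases before the annotated start, read 5′ to 3′ on the gene's strand: Id2 at chr12:25096093-25096342 (minus strand), Id3 at chr4:136143572-136143821 (plus), Msx1 at chr5:37824586-37824835 (minus) and Msx2 at chr13:53472781-53473030 (minus). Capitals mark GGCGCC, a palindrome that SMAD1 and SMAD5 are known to bind, and CCAAT on either strand (ATTGG on the strand shown).
Id2: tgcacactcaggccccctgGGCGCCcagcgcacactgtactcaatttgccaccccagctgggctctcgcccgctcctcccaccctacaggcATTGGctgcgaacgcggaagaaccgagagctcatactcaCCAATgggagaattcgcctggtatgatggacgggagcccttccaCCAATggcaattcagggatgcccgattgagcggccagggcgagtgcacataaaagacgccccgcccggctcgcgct
Id3: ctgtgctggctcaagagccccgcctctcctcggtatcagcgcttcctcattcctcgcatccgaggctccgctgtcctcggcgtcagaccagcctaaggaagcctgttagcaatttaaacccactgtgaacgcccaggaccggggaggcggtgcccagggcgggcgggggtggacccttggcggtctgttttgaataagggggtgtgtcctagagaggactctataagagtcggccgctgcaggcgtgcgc
Msx1: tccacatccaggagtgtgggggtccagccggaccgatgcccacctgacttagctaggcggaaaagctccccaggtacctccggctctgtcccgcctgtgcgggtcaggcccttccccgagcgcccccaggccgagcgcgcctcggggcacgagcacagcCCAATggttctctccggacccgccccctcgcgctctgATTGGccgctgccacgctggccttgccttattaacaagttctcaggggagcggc
Msx2: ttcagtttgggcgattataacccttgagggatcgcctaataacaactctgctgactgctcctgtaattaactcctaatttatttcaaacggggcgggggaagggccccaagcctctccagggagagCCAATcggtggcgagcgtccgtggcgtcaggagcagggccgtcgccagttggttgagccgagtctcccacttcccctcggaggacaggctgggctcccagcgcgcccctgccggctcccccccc

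GGCGCC occurred once in the windows of Id2 and of Id4 and in none of the other 4, and 9.59% of all 32851 promoter windows of the table held it. CCAAT on either strand occurred 3 times in Id2, 2 times in Id4, 2 times in Msx1 and once in Msx2, against 33.8% of all windows with at least 1 copy. The shorter SMAD box GTCT, also searched on both strands, was in Id2, Id3, Smad6 and Msx2 and in 82.9% of all windows. No searched motif overlapped another in the windows printed. These matches describe the letters of the windows only.

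The ID proteins bind E proteins and, lacking a basic region of their own, keep them from DNA. By the median over the 16 libraries, Id2 (267 FPKM), Id1 (85.2) and Id3 (68.2) were the most abundant of the 9 genes, though in TSC alone the mean of Msx2 (35.7 FPKM) exceeded that of Id3 (25.5). Id2 made up 17.9% to 44.6% (median 29.5%) of the summed FPKM of the 4 Id genes in the 8 libraries of iPSC origin, and 65.3% to 96.6% (median 93.5%) in the 8 of TSC origin. These ranges do not overlap, but shares of a sum are tied, so a higher Id2 share lowers the others. In FPKM, Id2 itself overlapped between the lineages, at 110 and 270 in TSC alone against up to 293 in iPSC origin. Id3 contributed 24.5% to 48.4% in iPSC origin and 0.463% to 10.3% in TSC origin, and Id1 23.8% to 49.9% and 1.85% to 25.5%. The highest Id1 share among the TSC libraries was that of replicate 2 of TSC alone.

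**Figure D1:**
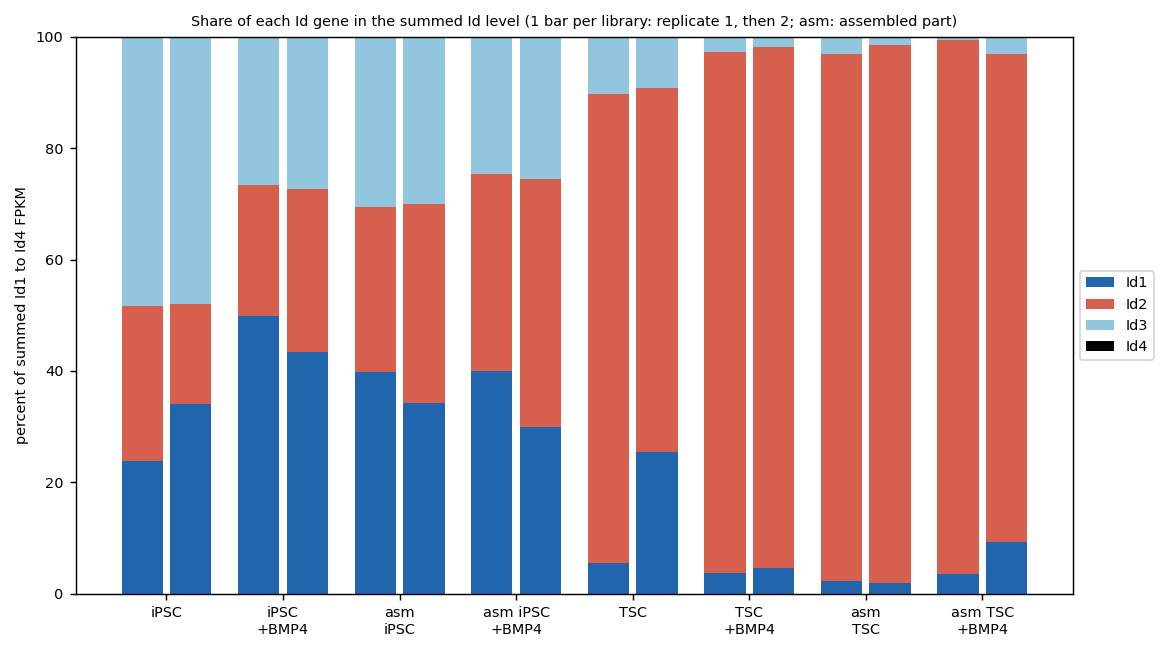
Share of each Id gene in the summed FPKM of Id1 to Id4, in percent, with 1 stacked bar per library (replicate 1, then 2) in 8 groups. Id2 fills 65.3% or more of every bar of TSC origin and at most 44.6% of every bar of iPSC origin, and Id4 is too low to be seen.

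Id2 reached the highest FPKM of the 9 genes. In iPSC alone it stood at 52.3 and 34.2 FPKM, and with BMP4 at 142 and 224. In the assembled iPSC part it stood at 132 and 181, and with BMP4 at 293 and 263. The lowest 2 of these 8 values are those of untreated iPSC alone. TSC alone held 110.2 and 269.9 FPKM of Id2, and TSC alone with BMP4 held 1538 and 854. The assembled TSC part held 1080.3 and 1429.8, and with BMP4 859 and 1226. The 6 libraries of TSC origin that were treated, assembled or both thus lay above every other library, and their 3 groups overlapped.

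In TSC alone, Id2 rose with BMP4 by 2.72 ± 0.42 on the log2 scale (limma adjusted p = 0.00178, n = 2 libraries per group). In the assembled TSC part the difference with BMP4 was -0.28 ± 0.42 (adjusted p = 0.950). The BMP4 effect on Id2 in the assembled TSC part differed from that in TSC alone by -3.00 ± 0.59, with a 95% interval of -4.27 to -1.73 (limma interaction, adjusted p = 0.0292). It was the only 1 of the 9 genes to pass this interaction, which 1.75% of all tested genes did. The call was lost without replicate 1 of the assembled TSC part (adjusted p = 0.0792), without its replicate 2, 1 of the cross-marker libraries (0.0768), without replicate 1 of the assembled TSC part with BMP4 (0.103) and without replicate 1 of TSC alone with BMP4 (0.106). The difference itself stayed between -3.20 and -2.58 in those 4 fits. It was also lost in the fit with library quality weights (0.0753), without the filter on low values (0.134), with only these 4 groups (0.206) and without both cross-marker libraries (-2.80, 0.0822).

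Id1 was highest in the treated iPSC libraries. Untreated iPSC alone held 44.9 and 65.2 FPKM, and BMP4-treated iPSC held 303 and 332. The assembled iPSC part held 177 and 174, and with BMP4 332 and 177, so here the libraries came within less than 1 FPKM of each other while not overlapping. In TSC alone Id1 was at 7.16 and 105 FPKM, in TSC alone with BMP4 at 61.8 and 42.7, in the assembled TSC part at 26.2 and 27.4, and with BMP4 at 32.3 and 131. The replicates of TSC alone span both of the treated values, and which of them was left out decided the sign of the BMP4 difference there: 2.68 without replicate 2 (limma adjusted p = 0.0215) and -1.02 without replicate 1, against 0.83 ± 0.88 with both (adjusted p = 0.586).

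Id3 was lower in every library of TSC origin than in any of iPSC origin, although neither test of TSC against iPSC passed for it. All 8 iPSC-derived libraries held 91.1 to 208 FPKM, lowest in iPSC alone (91.1 and 91.97) and highest in iPSC alone with BMP4 (161 and 208). The 8 of TSC origin lay between 4.15 and 45.3 FPKM, below all of the iPSC libraries, and their 4 groups overlapped one another. Id4, the remaining family member, was listed at 0 in both libraries of iPSC alone and at no more than 1.48 FPKM anywhere. After scaling by relative depth, its 16 values lay within 0.25 of whole multiples of the smallest value above 0, at most 18 such steps. That smallest value, in replicate 1 of TSC alone with BMP4, is 1 step by construction. How many reads a step stands for is not known. With BMP4 the Id4 values in iPSC alone came to 7 and 16 steps. Annotated genes on the opposite strand overlap Id4, and reads of the 2 strands cannot be told apart without strand information.

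**Figure D2:**
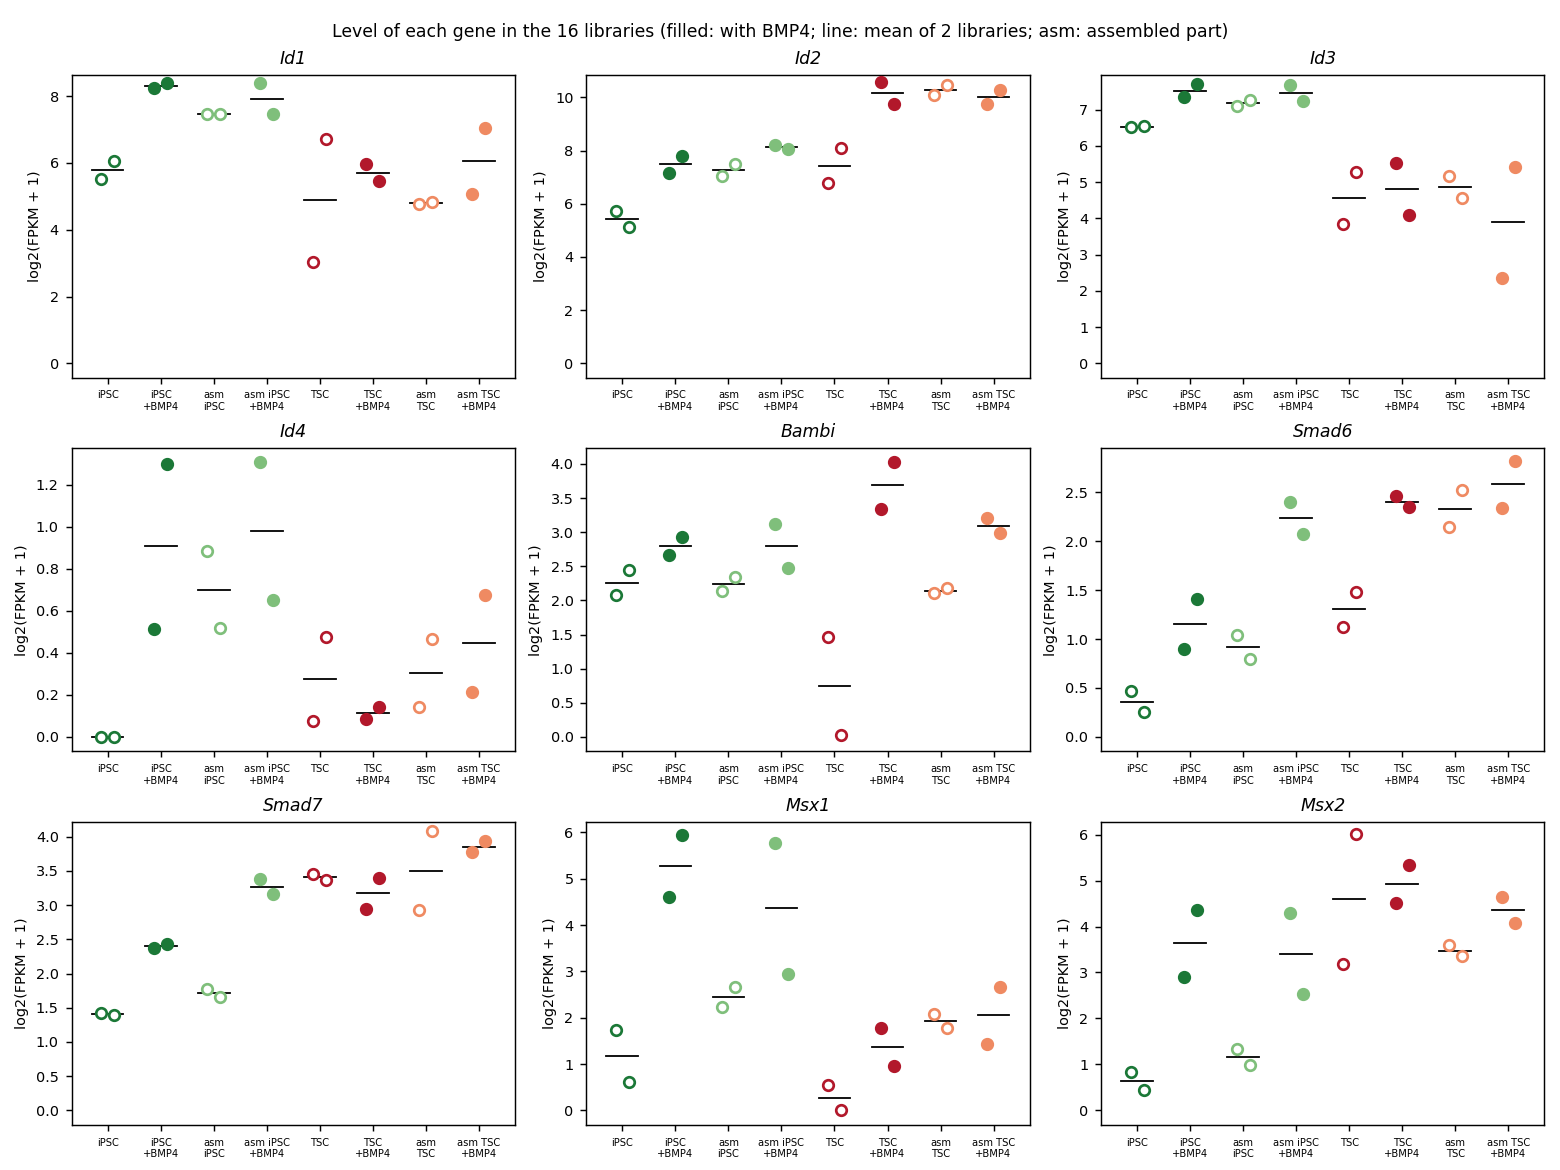
Level of the 9 genes as log2(FPKM + 1), 1 panel per gene with its own axis, in each of the 16 libraries by group, with open points for cultures without BMP4, filled points for those with it and a line at the mean of the log values. Id2 reaches 854 FPKM or more only in TSC libraries that were treated or assembled, while Msx1 reaches 23.2 FPKM or more only in BMP4-treated libraries of iPSC origin.

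BAMBI is a pseudoreceptor that resembles a type I receptor without the kinase, and SMAD6 and SMAD7 are inhibitory SMADs that act at the receptors. Bambi was higher with BMP4 in all 4 kinds of culture, without overlap between libraries, which held for 0.395% of all tested genes. It went from 3.24 and 4.42 FPKM to 5.35 and 6.64 in iPSC alone, and from 3.38 and 4.06 to 7.67 and 4.59 in the assembled iPSC part. The largest step was in TSC alone, from 1.76 and 0.0231 to 9.12 and 15.4. In the assembled TSC part, values of 3.30 and 3.54 without BMP4 stood against 8.20 and 6.92 with it. Bambi passed the test in TSC alone (2.94 ± 0.42, limma adjusted p = 0.00134) and had adjusted p from 0.535 to 0.951 in the other 3 kinds of culture. Its BMP4 effect in TSC alone exceeded that in iPSC alone by 2.40 ± 0.59, which did not pass (adjusted p = 0.0512). This difference ran from 1.68 to 3.12 in the fits that leave out 1 library.

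Smad6 had the lowest median of the 3 inhibitors over the 16 libraries (2.49 FPKM, against 4.50 for Bambi and 7.33 for Smad7), although Bambi was below it on average in TSC alone and in the assembled TSC part. It stood at 0.381 and 0.193 FPKM in iPSC alone, 0.865 and 1.66 with BMP4, 1.06 and 0.741 in the assembled iPSC part, and 4.28 and 3.19 there with BMP4. TSC alone held 1.18 and 1.78, and the other 6 libraries of TSC origin held 3.41 to 6.07. Its pattern over the TSC libraries was therefore that of Id2, with untreated TSC alone below the rest. With BMP4 in TSC alone it rose by 1.10 ± 0.30 (limma adjusted p = 0.0321), a call lost without replicate 1 of TSC alone (0.126) and without replicate 1 (0.137) or replicate 2 (0.0647) of TSC alone with BMP4. The call was also lost with library quality weights (0.165), without the filter on low values (0.0611), with a pseudocount of 0.1 (0.0580) and with only these 4 libraries (0.263).

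Smad7 followed another pattern. In iPSC alone it stood at 1.69 and 1.64 FPKM, and with BMP4 at 4.21 and 4.38. The assembled iPSC part held 2.44 and 2.14, and with BMP4 9.45 and 7.93. In both pairs the replicates were close and the groups far apart, yet the changes of 0.99 ± 0.33 and 1.56 ± 0.33 did not pass (limma adjusted p = 0.533 and 0.240). Without the 2 cross-marker libraries, the second was 1.67 (adjusted p = 0.0727). In TSC alone Smad7 was at 9.98 and 9.36 FPKM without BMP4 and 6.73 and 9.51 with it, and the assembled TSC part held 6.59 and 15.98, and 12.7 and 14.2 with BMP4. None of the 3 comparisons of TSC cultures with BMP4 or assembly that were made for Smad7 passed, with differences between -0.24 and 0.35.

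MSX1 and MSX2 are homeobox repressors known as BMP targets at many sites of the embryo. Msx1 was low without BMP4 and high with it in iPSC. In iPSC alone it went from 2.31 and 0.526 FPKM to 23.2 and 60.3, so that both treated libraries lay above both untreated ones, of which the lower is near 0. In the assembled iPSC part it went from 3.68 and 5.33 to 54.0 and 6.75, so replicate 1 alone carries most of that difference. The change there was 1.92 ± 0.77 with all libraries and 3.34 without the 2 cross-marker libraries (limma adjusted p = 0.554 and 0.102). No library of TSC origin exceeded 5.33 FPKM of Msx1.

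Msx2 moved with Msx1 in iPSC. It went from 0.795 and 0.357 FPKM to 6.46 and 19.6 in iPSC alone, and from 1.52 and 0.992 to 18.6 and 4.77 in the assembled iPSC part. In both genes the library with the higher value was the same one within each treated pair. TSC differed in that Msx2 was already present without BMP4, at 8.16 and 63.2 FPKM in TSC alone. With BMP4 it was at 21.9 and 39.3, inside that range. The assembled TSC part held 11.03 and 9.25 FPKM, and with BMP4 23.8 and 15.996.

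The first comparison asks what BMP4 does to each kind of culture. In iPSC alone, 0 of the 9 genes passed limma's test, where 0.0597% of all tested genes did. An unadjusted p under 0.05 was found for 7 of them, all higher, and for 842 of all 13406 genes. All 9 were higher with BMP4 without overlap between libraries, against 27.6% of all genes, and their median change was 0.99 against 0.05 for all genes. The largest were Msx1 at 4.10 ± 0.77 (limma adjusted p = 0.113), Msx2 at 2.99 ± 0.78 (0.306) and Id1 at 2.53 ± 0.88 (0.556). A limma fit with library quality weights, which came out equal for both libraries of each group and so weighted groups by their spread, passed Id1, Id2, Msx1 and Msx2 (adjusted p = 0.0461, 0.00655, 0.00534 and 0.0161). That fit passed 132 of all 13406 genes, against 8 without weights. Without the 2 cross-marker libraries, Msx1 passed (0.0249). Mesoderm markers moved with these genes: their summed level over 8 genes was 42.8 to 48.5 FPKM in iPSC alone and 198 to 357 with BMP4, with 5 of 6 tested markers higher without overlap. The summed level of 12 trophoblast markers was 128 to 191 FPKM without BMP4 and 327 to 826 with it. The part of either in the differences of the 9 genes was not tested.

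In TSC alone, 3 of the 9 genes rose with BMP4, namely Id2, Bambi and Smad6, and none fell. Of all tested genes 12.1% passed, 6.39% in the upward direction. A fit of only these 4 libraries passed 0 of the 9 genes, and only 3 of all 13406. Without overlap between libraries 4 of the 9 were higher (25.6% of all genes), the fourth being Msx1, from 0.463 and 0 FPKM to 2.43 and 0.949. Id3, Id4, Smad7 and Msx2 differed by -0.24 to 0.33 on the log2 scale, and none of them passed. Markers of several cell types moved with the genes here. Of the 12, Eomes and Elf5 rose while Krt18 and Plac1 fell, and the summed level went from 4132 to 7158 FPKM in TSC alone to 1660.3 to 1744 with BMP4. The sum of 10 pluripotency markers was 209.5 to 298 FPKM without BMP4 and 283 to 525 with it, and Sox2, Dppa4 and Dnmt3b rose. Of 4 tested endoderm markers 3 rose, Gata4, Dab2 and Amn, and the sum over all 8 went from 1.01 and 1.19 FPKM to 10.1 and 13.1. The part of these markers in the differences of the 9 genes was not tested.

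In the assembled iPSC part, 0 of the 9 genes passed limma's test (0.00746% of all genes did). An unadjusted p under 0.05 was found for 4 (1049 of all 13406 genes), and 7 of 9 were higher without overlap (22.3% of all genes). The median change was 0.84 against 0.05. Id3 (135 and 152 FPKM to 203 and 149.9) and Id4 were the exceptions. Msx2 differed by 2.25 with all libraries and by 3.13 (limma adjusted p = 0.218) without the 2 cross-marker libraries. The sum of 12 trophoblast markers was 190 to 278 FPKM without BMP4 and 546 to 617 with it. Of the 12, 11 had a change above 0 (55.5% of all genes), and 0 passed. In the assembled TSC part 0 of the 9 passed (0.5% of all genes did). An unadjusted p under 0.05 was found for 1 (1171 of all 13406 genes), and 3 of 9, Id1, Bambi and Msx2, were higher without overlap (17.6% of all genes). The median change was 0.25 against -0.03. In this part the BMP4 differences for Bambi were 0.95 ± 0.42 (limma adjusted p = 0.535), for Id1 1.25 ± 0.88 (0.811) and for Msx2 0.89 ± 0.78 (0.871), and without the 2 cross-marker libraries they were 0.99 (0.627), 1.28 (0.819) and 0.77 (0.881). Here the trophoblast sum was lower with BMP4, at 525 to 844 FPKM against 1703 to 1832, and 0 of the 12 markers passed. The part of these markers in either comparison was not tested.

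**Figure D3:**
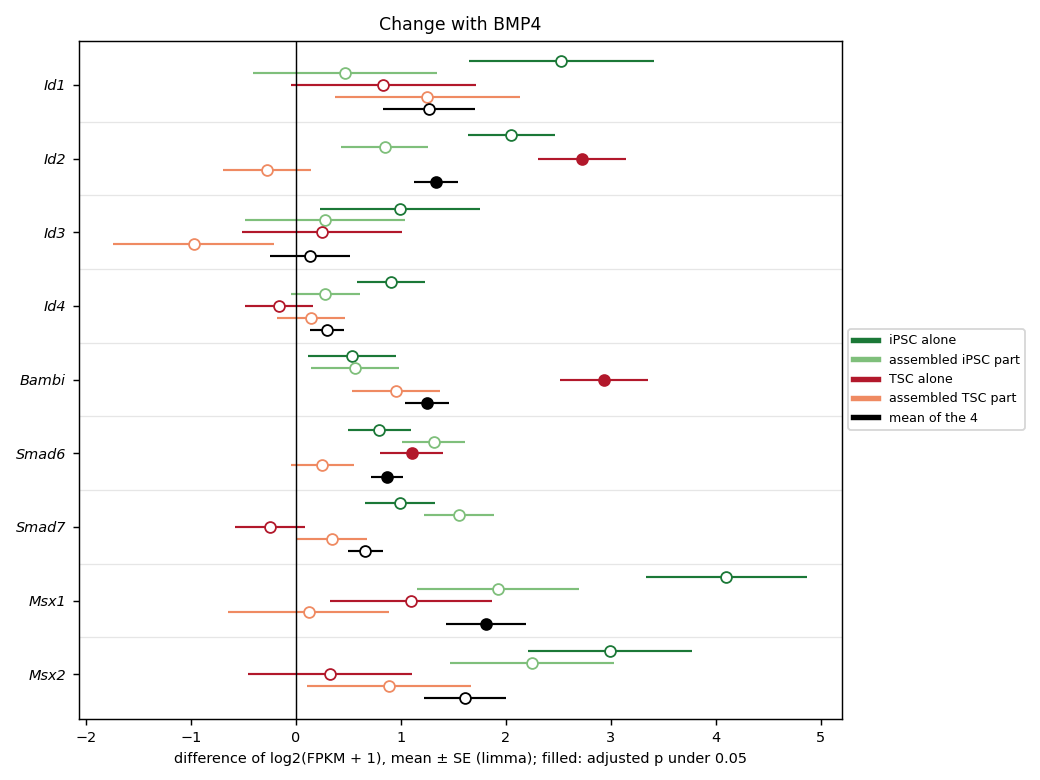
Difference of log2(FPKM + 1) with BMP4 minus without, mean ± SE from limma, for the 9 genes in each of the 4 kinds of culture (colours) and for the mean of the 4 effects, with filled points for an adjusted p under 0.05. Msx1 in iPSC alone is farthest to the right at 4.10, and Id2 in the assembled TSC part lies at -0.28 while it lies at 2.72 in TSC alone.

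Over the mean of the 4 BMP4 effects, 4 of the 9 genes passed limma's test, all higher, where 1.4% of all genes passed (1.1% higher). These were Id2 (1.34 ± 0.21, adjusted p = 0.00752), Bambi (1.25 ± 0.21, 0.0129), Smad6 (0.87 ± 0.15, 0.0145) and Msx1 (1.81 ± 0.38, 0.0395). The median of the 9 was 1.25, against 0.02 for all genes. Msx2 (1.61 ± 0.39, 0.0608) and Smad7 (0.66 ± 0.17, 0.0729) did not pass with all libraries in this fit. Smad7 passed after quantile normalization. Msx2 passed without replicate 2 of TSC alone (0.00821) or replicate 2 of the BMP4-treated assembled iPSC part (0.0298), and Smad7 without replicate 2 of the assembled TSC part (0.0153). Id1 (1.27 ± 0.44, 0.177) passed without replicate 2 of TSC alone (1.73, 0.00852). Bambi was lost without replicate 1 of iPSC alone (0.0507), and Smad6 without replicate 2 of iPSC alone (0.0511) or of iPSC alone with BMP4 (0.0515). Without the filter on low values only Smad6 passed, and with a pseudocount of 0.1 Bambi was lost (0.0742) and Msx2 passed (0.0417). All 4 kept their calls without the 2 cross-marker libraries, with Msx1 at 2.12 (0.0115), and Smad7 passed at 0.84 (0.0177).

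Msx1 was the least secure of the 4. It was lost in 12 of the 16 fits that leave out 1 library, those without either library of iPSC alone, TSC alone, TSC alone with BMP4, the assembled iPSC part or the assembled TSC part, or without replicate 2 of iPSC alone with BMP4 or of the assembled TSC part with BMP4. Its adjusted p in those 12 ran from 0.0533 to 0.112. Id3 (0.14 ± 0.38) and Id4 (0.29 ± 0.16) had the smallest mean effects. The change was above 0 in all 4 kinds of culture for 5 of the 9 genes (Id1, Bambi, Smad6, Msx1 and Msx2), against 7.96% of all genes.

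Whether BMP4 acted differently in the 2 lineages was tested by interactions. In cells cultured alone 0 of the 9 genes passed limma's test of TSC against iPSC (2.79% of all genes did). An unadjusted p under 0.05 was found for 5 of them and for 2504 of all 13406 genes. Of these 5, Bambi had the larger effect in TSC, and Msx1 (-3.00 ± 1.09, adjusted p = 0.162), Msx2 (-2.66 ± 1.10, 0.217), Smad7 (-1.23 ± 0.47, 0.185) and Id4 (-1.07 ± 0.46, 0.234) the larger effect in iPSC. In the fits that leave out 1 library, the difference ran from 1.68 to 3.12 for Bambi and from -4.07 to -1.26 for Msx2. For Id1 it was -3.55 without replicate 1 of TSC alone and 0.15 without its replicate 2. In the assembled parts 0 of the 9 passed (0.0746% of all genes did). Here 2, Smad6 and Smad7, had an unadjusted p under 0.05 (1153 of all 13406 genes), both with the larger effect in the iPSC part. For iPSC the BMP4 effect in the assembled part against that in iPSC alone passed for 0 of the 9 (0.0224% of all genes did). An unadjusted p under 0.05 was found for 0 (536 of all 13406 genes), and the intervals were wide, as for Id2 (-1.21, 95% interval -2.48 to 0.065).

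The second comparison asks how the genes differ between assembled and separate cells without BMP4. It shares the untreated libraries of cells cultured alone with the BMP4 comparisons above. In the assembled iPSC part, Id2 was the only 1 of the 9 genes to pass (1.84 ± 0.42, limma adjusted p = 0.0161), where 11.8% of all genes passed and 2.08% passed upward. The median of all genes was -0.19 in this comparison and 0.00 after quantile normalization. The Id2 call was lost without replicate 2 of the assembled iPSC part (adjusted p = 0.147), replicate 1 of iPSC alone (0.0584) or replicate 2 of iPSC alone (0.138), and without the filter on low values (0.0779). Without overlap between libraries 8 of the 9 were higher (22.4% of all genes), and only Bambi overlapped, at 3.38 and 4.06 FPKM assembled against 3.24 and 4.42 alone. Id1 at 1.68 ± 0.88 (adjusted p = 0.234) and Msx1 at 1.28 ± 0.77 (0.305) came next after Id2 in size. Mesoderm markers were again higher, with a summed level of 271 to 302 FPKM in the assembled part against 42.8 to 48.5 in iPSC alone, and Mixl1, Hoxb1 and Evx1 rose. Pluripotency markers went the other way, with 9 of 10 changes below 0, in a comparison where only 37.6% of all genes lay above 0. Their sums were 1079 to 1896 FPKM against 2158 to 3003, and Dnmt3b and Fgf5 fell. The part of these markers in the Id2 difference was not tested.

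In the assembled TSC part, Id2 (2.84 ± 0.42, limma adjusted p = 0.00102), Bambi (1.39 ± 0.42, 0.0355) and Smad6 (1.03 ± 0.30, 0.0318) were higher than in TSC alone. Of all genes 19.2% passed, 9.01% upward. Msx1 was also higher without overlap, making 4 of 9 against 28.6% of all genes, but did not pass (1.65 ± 0.77, 0.152). Id2 kept its call without each library in turn. With only these 4 libraries, 0 of the 9 passed (Id2 at 0.0838), and only 3 of all 13406 genes. Bambi was lost without replicate 1 (0.122) or replicate 2 (0.126) of the assembled TSC part or replicate 2 of TSC alone (0.68, adjusted p = 0.254), and Smad6 without replicate 1 (0.0652) or 2 (0.163) of the assembled TSC part or replicate 1 of TSC alone (0.130). Without the 2 cross-marker libraries, Id2 was at 2.64 (adjusted p = 0.0174), Bambi at 1.35 (0.121) and Smad6 at 0.84 (0.158). Bambi and Smad6 were also lost with library quality weights and without the filter on low values, and Smad6 with a pseudocount of 0.1. Msx2 differed by -1.13 ± 0.78 (0.341), by -2.53 without replicate 1 of TSC alone and by 0.28 without its replicate 2. Of the 12 trophoblast markers 2 rose (Eomes and Elf5) and 7 fell in the same comparison, with summed levels of 1703 to 1832 FPKM in the assembled part against 4132 to 7158 in TSC alone, and 4 of 10 pluripotency markers and 2 of 4 tested endoderm markers, Gata4 and Dab2, rose, as did the 1 tested fibroblast marker, Thy1. Their part in these differences was not tested. The difference between the assembly effects of TSC and iPSC passed for 0 of the 9 genes in limma (4.96% of all genes passed). Bambi alone had an unadjusted p under 0.05, where 3089 of all 13406 genes did. For Id1 this difference was -3.61 without replicate 1 of TSC alone and 0.092 without its replicate 2. For Bambi it ran from 0.70 to 2.14 in the fits that leave out 1 library.

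**Figure D4:**
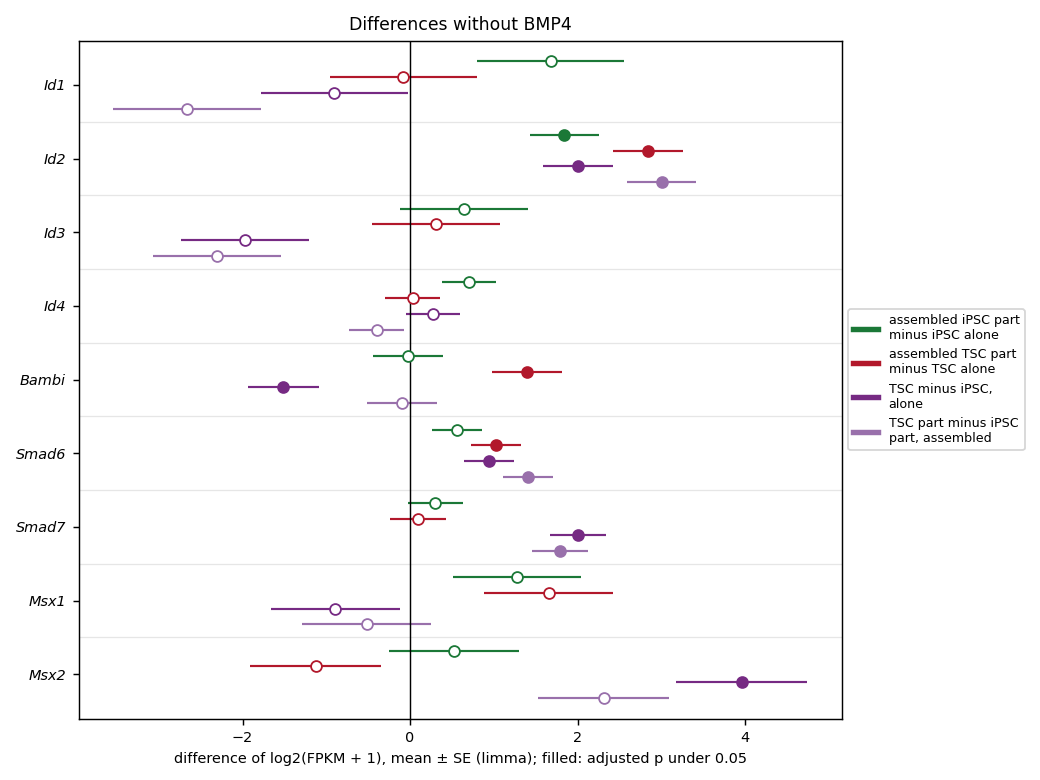
Difference of log2(FPKM + 1) without BMP4, mean ± SE from limma, for the 9 genes: assembled part minus the same cells alone for iPSC and TSC, and TSC minus iPSC alone and assembled (colours), with filled points for an adjusted p under 0.05. Id2 is filled in all 4 comparisons, and Smad7 is filled in both comparisons of TSC with iPSC.

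The third comparison sets TSC against iPSC without BMP4. Between cells cultured alone, Id2 (2.00 ± 0.42, limma adjusted p = 0.00254), Smad6 (0.94 ± 0.30, 0.0267), Smad7 (2.00 ± 0.33, 0.000623) and Msx2 (3.96 ± 0.78, 0.00182) were higher in TSC and Bambi was lower (-1.51 ± 0.42, 0.0133). These are 5 of 9, where 36.4% of all genes passed, 16.2% higher and 20.2% lower. Smad7 was at 9.36 FPKM or more in TSC alone and at 1.69 or less in iPSC alone. A fit of only these 4 libraries passed 2 of the 9, Smad6 and Smad7, where it passed 3308 of all 13406 genes. Bambi was lost without replicate 2 of TSC alone (-0.80, adjusted p = 0.134) or replicate 2 of iPSC alone (0.0942), and Smad6 without replicate 2 of TSC alone (0.127), replicate 1 of iPSC alone (0.0687) or its replicate 2 (0.142). Smad6 was also lost with library quality weights and Bambi without the filter on low values. Id3 differed by -1.97 ± 0.76 without passing (0.0605), and ran from -2.68 to -1.26 in the fits that leave out 1 library. After quantile normalization Id3 passed. Id1 was at -2.76 without replicate 2 of TSC alone and at 0.95 without its replicate 1.

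Between the parts of assembled structures, Smad6 (1.41 ± 0.30, limma adjusted p = 0.0073) and Smad7 (1.79 ± 0.33, 0.00354) were higher in the TSC part together with Id2, 3 of 9 where 16.9% of all genes passed and 11.1% passed upward. Smad6 was lost without replicate 2 of the assembled TSC part (1.22, 0.0553) or replicate 2 of the assembled iPSC part (0.0673). Without the 2 cross-marker libraries Smad6 stood at 1.22 (0.0519) and Smad7 at 1.21 (0.0264). Id1 (-2.66 ± 0.88, 0.0553) and Id3 (-2.30 ± 0.76, 0.0570) were on the other side and did not pass, and Msx2 (2.31 ± 0.78, 0.0604) did not pass either. With library quality weights all 3 passed (0.0098, 0.0227 and 0.0167), and with only these 4 libraries Smad7 was lost (0.0590). The weighted fit passed 3242 of all 13406 genes, against 2271 without weights. Bambi, lower in TSC when alone, was indistinguishable here, at 3.30 and 3.54 FPKM against 3.38 and 4.06.

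In the order of group means, neighbouring groups overlapped in 4 to 6 of 7 steps for each gene. Id2 had 2 breaks, between the assembled TSC part with BMP4 (mean 1042 FPKM) and the assembled iPSC part with BMP4 (278), and between the assembled iPSC part (156) and iPSC alone (43.3). Bambi had TSC alone with BMP4 at the top (12.2 ± 4.42 FPKM, SD, n = 2) and TSC alone at the bottom (0.893 ± 1.23), each apart from its neighbour. Id3 fell into 3 tiers, the treated or assembled iPSC groups, iPSC alone, and all TSC groups.

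How the 9 genes vary together is a description, since libraries of a group share their treatment. Over the 8 libraries of iPSC origin Pearson's r of log2(FPKM + 1) was positive for all 36 pairs, from 0.58 for Id2 with Bambi to 0.97 for Id1 with Id3 and for Msx1 with Msx2. Over the 8 of TSC origin it was 0.95 for Id2 with Smad6 and -0.49 for Msx1 with Msx2. Among 8518 genes with a group mean of at least 5 FPKM, the 3 most like each of the 9 over all 16 libraries were taken. For Id1 these were Parp9 (0.88), Psme2b and Vps29, for Id2 Gprc5a (0.94), Gabarapl2 and Tmem97, and for Id3 Atpif1 (0.95), Hmgn2 and Cdk4. Id4 had Mixl1 (0.89), Oasl2 and Psme2, and Bambi had Depdc1a (0.89), Tspan2 and D16Ertd472e. Smad6 had Plekhg3 (0.93), Id2 (0.92) and Unc5b, and Smad7 had Zc3hav1 (0.93), Irf2 and Abhd2. Msx1 had Cyp2s1 (0.92), Idnk and Mixl1, and Msx2 had Ifi35 (0.92), Tbx3 (0.92) and Ifih1. The 16 libraries come from both lineages, and these values include the difference between them.

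Other genes of the pathway give the setting. Among ligands 5 of 14 were tested. Bmp4 itself was at 0.267 and 0.623 FPKM in TSC alone and at 16.4 and 13.8 with BMP4, a rise of 3.48 ± 0.82 (limma adjusted p = 0.0170), and at 16.4 and 31.0 in the assembled TSC part, where added BMP4 went with 25.5 and 35.5. In iPSC it was at 1.02 and 0.925 FPKM alone, at 0.876 and 16.5 with BMP4, at 1.55 and 1.38 assembled, and at 90.5 and 20.5 assembled with BMP4. Bmp4 was thus high in all TSC libraries in which Id2 was high, and low in untreated TSC alone. Gdf6, a ligand of the same family, was at no more than 0.0738 FPKM in untreated TSC cultures and rose with BMP4 in TSC alone (0.845 and 4.81 FPKM, 1.69 ± 0.39, 0.0151) and in the assembled TSC part (3.28 and 3.57, 2.09 ± 0.39, 0.0361). Bmp2 and the antagonist Nog were below the level for testing, with at most 1.68 and 1.71 FPKM, and Nog was listed at 0 in all 8 libraries of TSC origin.

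Counts for the pathway lists with BMP4 in TSC alone are to be read against all tested genes, of which 6.39% rose and 5.74% fell, so that 1 call in a list of about 10 is near the background. Of 8 tested receptors and co-receptors, 0 rose and 3 fell with BMP4 in TSC alone: Bmpr1a, a type I BMP receptor (-1.13 ± 0.31, limma adjusted p = 0.0318), and the co-receptors Rgma and Rgmb. In the assembled TSC part against TSC alone, Eng, a co-receptor of the TGF-beta family, rose (1.86 ± 0.43, 0.0117) and Bmpr1a, Acvr2b, Rgma and Rgmb fell. In the assembled iPSC part Bmpr1a was higher than in iPSC alone, at 8.43 and 10.3 FPKM against 2.89 and 4.26 (1.19 ± 0.31, 0.0272), and its assembly effect differed between the lineages (-2.17 ± 0.44 for TSC minus iPSC, 0.0182). Of 3 tested SMAD transducers, Smad1 fell with BMP4 in TSC alone (-1.38 ± 0.41, 0.0458).

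Among 6 tested secreted antagonists, Fstl1 rose (1.30 ± 0.35, limma adjusted p = 0.0323) and Nbl1 fell (-1.41 ± 0.29, 0.00908) with BMP4 in TSC alone. Of 10 other intracellular inhibitors 0 rose and 2 fell there, the SMAD corepressor Ski and Pmepa1. Bambi and Smad6 rose in the same libraries, so the inhibitors did not move in 1 direction. Of 11 tested genes among 21 other reported BMP targets, 0 rose and Dlx3, a placental homeobox gene, fell from 87.2 and 81.0 FPKM to 12.7 and 7.93 (-2.94 ± 0.30, 0.000137). Of 10 tested E proteins and related factors, the partners and neighbours of ID proteins, Tcf15 rose (3.00 ± 0.36, 0.000419) from values listed at 0 in TSC alone. Among Nodal and activin targets, the SMAD partner Foxh1 (4.11 ± 0.45, 0.000231) and the T-box factor Eomes (3.71 ± 0.35, 7.95e-05) rose. With BMP4 in iPSC alone and in the assembled iPSC part, 0 genes of these 8 lists passed, where 0.0597% and 0.00746% of all genes did. The 11 other reported BMP targets nevertheless lay mostly higher there: 9 of 11 without overlap in iPSC alone (27.6% of all genes), with a median change of 1.71, and 8 of 11 in the assembled iPSC part (22.3% of all genes), with a median of 0.76. In TSC cultures they did not. With BMP4, 2 of 11 were higher without overlap in TSC alone (25.6% of all genes), with a median of -0.09. In the assembled TSC part 0 of 11 were (17.6% of all genes), with a median of -0.42. Only 2 of 11 changes were above 0 in that part, against 45.2% of all genes. Gata3 and Hand1 belong both to this list and to the trophoblast markers. The summed level of those markers was higher with BMP4 in both iPSC cultures and lower in both TSC cultures. Its part in these counts was not tested.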

How the data were processed

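Smart-seq2 RNA libraries of 16 single colonies or parts of colonies were compared, 2 in each of 8 groups taken from the sample labels. The deposited values are FPKM in a table of 31663 gene symbols. The tools named per the submitters' processing notes are TopHat2 and CASAVA, and the builds mm9 and hg19, without roles or versions. How FPKM was computed and with which annotation was not stated in the labels or the table, and no gene coordinates of that build are printed. Entries that share a symbol (12) stayed separate.

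The test covered the 13406 genes reaching 1 FPKM in 2 or more libraries. limma 3.58.1 (R 4.3.3) was run on log2(FPKM + 1), unscaled, with a mean for each of the 8 groups, an intensity trend and 8 residual degrees of freedom. There were 14 comparisons, each two-sided and with its own Benjamini-Hochberg adjustment over those genes. This fit was first tested on simulated data with known changes, and the outcome is not reported here. The simulation gave each gene the same spread in all groups, while the quality weights differed between groups. Members and gene lists were chosen with earlier results of these data known. All 9 members were named. Of each pathway list up to 4 genes past the threshold were named by the size of their log2 change, with Bmp4, Bmp2 and Nog whatever their result, and for each member the 3 genes most like it. Marker genes were named after their values were seen. One gene of the Nodal and activin list is not reported here, so that list has no count for BMP4 in TSC alone.

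The alternatives tried were leaving out each library or both cross-marker libraries, quality weights for libraries, upper quartile or quantile scaling, 0.1 as the pseudocount, testing without the filter, blocking on the replicate number and fitting the compared groups alone. Promoter windows are the 250 bases before the start in the RefSeq table on GRCm38.p6, and overlapping genes were looked up by name in the GENCODE annotation. Relative depth was read from the most frequent ratio of low values between libraries. Python 3.11.15 with pandas 2.3.3, numpy 2.4.6 and matplotlib 3.10.9 made the tables and plots.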

Additional observations from a re-analysis of the deposited data

Results flagged for a closer look

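The difference between the BMP4 effect on Id2 in the assembled TSC part and in TSC alone was -3.00 ± 0.59 on the log2(FPKM + 1) scale (limma interaction, adjusted p = 0.0292). It is singled out because the test of the difference itself passed. With BMP4, both libraries of TSC alone were above both without it, and the libraries of the assembled TSC part overlapped. Over its 16 alternatives the adjusted p ran from 0.00847 to 0.206, and 8 of them passed.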

How the results depend on the processing

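Across the alternatives, none of the 20 gene results that passed changed sign. Counts of the 9 genes past the threshold moved more often, and the cause was not tested. The counts below are those that moved by more than 1.5 times. Smaller moves were 2 in place of 3 for BMP4 in TSC alone with library quality weights, without the filter and with a pseudocount of 0.1 (Smad6 lost in each), 5 in place of 4 for the mean BMP4 effect with the weights (Msx2 gained) and without the cross-marker libraries (Smad7 gained), and 4 in place of 5 for TSC against iPSC alone with the weights (Smad6 lost) and without the filter (Bambi lost). The pseudocount of 0.1 left the mean effect at 4 genes with Msx2 in place of Bambi, the assembled TSC part against TSC alone at 3 with Msx1 in place of Smad6, and gave 4 in place of 3 for the TSC part against the iPSC part (Msx2 gained), which fell to 2 without the cross-marker libraries (Smad6 lost). Quantile normalization gained Smad7 for the mean BMP4 effect and Id3 for TSC against iPSC alone, with no gene lost in either. The quality weights were equal within each group, so they weight groups rather than single libraries. With library quality weights the count for BMP4 in iPSC alone was 4 in place of 0, where all 13406 genes gave 132 in place of 8. For the assembled iPSC part against iPSC alone it was 2 in place of 1 (all genes 3985 in place of 1585). For the assembled TSC part against TSC alone it was 1 in place of 3 (all genes 1510 in place of 2575). For the assembled TSC part against the iPSC part it was 6 in place of 3 (all genes 3242 in place of 2271). For the TSC interaction of BMP4 and assembly it was 0 in place of 1 (all genes 47 in place of 235). For the BMP4 effect in TSC minus iPSC, alone, it was 1 in place of 0 (all genes 267 in place of 374). Without the filter on low values, which adds genes to the adjustment, the mean BMP4 effect passed 1 gene, assembled against alone passed 0 in iPSC and 1 in TSC, and the TSC interaction passed 0. In the same order 155, 1037, 1370 and 102 of all 31663 genes passed. With only the groups compared, which leaves fewer libraries to estimate the spread, BMP4 in TSC alone passed 0, assembled against alone passed 3 in iPSC and 0 in TSC, TSC against iPSC passed 2 alone and 5 assembled, and the TSC interaction passed 0. In the same order 3, 1892, 3, 3308, 1947 and 12 of all 13406 genes passed. Without the 2 cross-marker libraries BMP4 in iPSC alone passed 1, the assembled TSC part against TSC alone 1 and the TSC interaction 0. Quantile normalization and upper quartile rescaling each passed 1 gene, Bambi, for the BMP4 effect in TSC minus iPSC, alone, and upper quartile rescaling passed 5 for the assembled TSC part against the iPSC part. In the same order 480, 387 and 2390 of all 13406 genes passed.

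Leaving out each library in turn gave 2 to 5 genes for the mean BMP4 effect, 0 to 1 for the assembled iPSC part and 1 to 3 for the assembled TSC part against the same cells alone, 3 to 5 for TSC against iPSC alone, 0 to 2 for the TSC interaction, 0 to 3 for the BMP4 effect in TSC minus iPSC, alone, and 0 to 2 for the assembly effect. The lone library of such a group is assumed to vary like the other groups. Of 126 gene results, 31 changed sign without some library, and none of these had passed. For BMP4 in TSC alone these ranges were Id1 -1.02 to 2.68, Id3 -0.47 to 0.97, Id4 -0.36 to 0.039 and Msx2 -1.08 to 1.73. For BMP4 in the assembled iPSC part the range was Id4 -0.049 to 0.61. For BMP4 in the assembled TSC part they were Id3 -2.51 to 0.56, Id4 -0.088 to 0.37, Smad7 -0.24 to 0.93 and Msx1 -0.49 to 0.73. The mean BMP4 effect gave Id3 -0.25 to 0.52. The assembled iPSC part against iPSC alone gave Bambi -0.20 to 0.15. The assembled TSC part against TSC alone gave Id1 -1.93 to 1.77, Id3 -0.40 to 1.02, Id4 -0.17 to 0.23, Smad7 -0.49 to 0.67 and Msx2 -2.53 to 0.28. TSC against iPSC cultured alone gave Id1 -2.76 to 0.95. The TSC part against the iPSC part gave Bambi -0.20 to 0.011. The BMP4 effect in the assembled iPSC part minus that in iPSC alone gave Bambi -0.29 to 0.34 and Msx2 -1.63 to 0.14. The same difference for TSC gave Id1 -1.43 to 2.27, Id3 -2.76 to 0.31 and Msx2 -0.84 to 1.97. The BMP4 effect in TSC minus that in iPSC gave Id1 -3.55 to 0.15 for cells alone and Id1 -0.21 to 1.78, Id3 -2.79 to 0.28 and Id4 -0.47 to 0.19 for the assembled parts. The assembly effect in TSC minus that in iPSC gave Id1 -3.61 to 0.092, Id3 -1.04 to 0.38, Smad7 -0.79 to 0.37 and Msx1 -0.18 to 0.94.

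Other sign changes were in genes that did not pass. Without the cross-marker libraries Msx1 with BMP4 in the assembled TSC part was at -0.035, Id4 and Smad7 in that part against TSC alone at -0.13 and -0.49, and the iPSC interaction of Msx2 at 0.14. Quantile normalization put Bambi in the assembled iPSC part against iPSC alone at 0.25 (0.23 with upper quartile rescaling), Id4 in the assembled TSC part against TSC alone at -0.26, the iPSC interaction of Bambi at -0.047 and the assembly effect of Msx1 at -0.13. Id1 in the assembled TSC part against TSC alone was at 0.022 with upper quartile rescaling, and Smad6 for the BMP4 effect in TSC minus iPSC, alone, at -0.30 with a pseudocount of 0.1.

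Same-numbered libraries correlated in their deviations from the group means at -0.18 to 0.12 over 28 pairs of groups, and no label ties them. With the replicate block every count of the 9 genes was as without it, for example 3 for BMP4 in TSC alone and 4 for the mean BMP4 effect. Scaling moved the split of all genes called higher and lower in the assembled iPSC part against iPSC alone from 279 and 1306 to 577 and 780 (quantile) or 774 and 713 (upper quartile), and in the assembled TSC part against the iPSC part from 1482 and 789 to 1273 and 1180 or 1100 and 1290. Absolute depth is not known, so values near 0, such as those of Id4, carry no counting interval.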
